A study of Mus musculus with 4 samples.

Results

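The genes described here are 9 genes of the spiny projection neurons of the striatum, chosen by name. They are Drd1, Tac1 and Pdyn of the direct pathway, Drd2, Adora2a and Penk of the indirect pathway, and Ppp1r1b, Rgs9 and Pde10a, which both kinds of neuron express. All 9 were found among the 33981 genes of the joined tables. All 9 passed the filter on low counts in every comparison.

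Spiny projection neurons (SPNs) make up most neurons of the striatum and are inhibitory. Direct pathway SPNs project to the output nuclei of the basal ganglia and are excited by dopamine through the D1 receptor. Indirect pathway SPNs project to the external globus pallidus and are inhibited by dopamine through the D2 receptor, which adenosine opposes through its own receptor. The striatum lies beneath and behind the prefrontal cortex, so a frontal coronal section holds more or less of it depending on its plane.

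Libraries were made from frozen frontal brain tissue, taken coronally so as to hold the prefrontal cortex, of male C57BL/6J mice of 3 to 5 months in 4 groups of 6 libraries. NT + Sham and NT + Stroke mice received saline, while hypertension in HT + Sham and HT + Stroke mice was modelled by subcutaneous infusion of angiotensin II, with a daily dose of 0.28 mg/kg, and tissue was taken at day 28. Photothrombosis, in which light clots vessels that carry the dye Rose Bengal, targeted the prefrontal cortex on day 7, and sham mice received the same surgery and dye without the light. The labels do not say that the numbered libraries of a group came from separate animals. They were taken as separate mice, and p-values measure the spread between these libraries. Sections were of whole tissue, so fewer cells of a type and less RNA per cell cannot be told apart.

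The identifiers and positions are those of the deposited tables and match GRCm38. Drd1 (ENSMUSG00000021478) encodes the D1 receptor and spans 54051183 to 54055705 of chromosome 13 on the minus strand. Tac1 (ENSMUSG00000061762), the precursor of substance P, spans 7554879 to 7565834 of chromosome 6 on the plus strand. Pdyn (ENSMUSG00000027400), the precursor of dynorphins, spans 129686565 to 129699844 of chromosome 2 on the minus strand. Together they stand for direct pathway neurons here, and how much of each came from other neurons was not tested.

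Drd2 (ENSMUSG00000032259) encodes the D2 receptor and spans 49340627 to 49408177 of chromosome 9 on the plus strand. Adora2a (ENSMUSG00000020178), which encodes the adenosine receptor of these neurons, spans 75316877 to 75334784 of chromosome 10 on the plus strand. Penk (ENSMUSG00000045573), the precursor of enkephalins, spans 4133531 to 4138819 of chromosome 4 on the minus strand. These are the usual markers of indirect pathway neurons, although Penk and Drd2 are also made by other neurons.

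Ppp1r1b (ENSMUSG00000061718) encodes DARPP-32, a phosphatase inhibitor that integrates dopamine signals, and spans 98348404 to 98357796 of chromosome 11 on the plus strand. Rgs9 (ENSMUSG00000020599) encodes a regulator of G protein signalling that shortens receptor signals, and spans 109225355 to 109298129 of chromosome 11 on the minus strand. Pde10a (ENSMUSG00000023868), a phosphodiesterase that breaks down cAMP and cGMP, spans 8525372 to 8986648 of chromosome 17 on the plus strand. All 3 act downstream of the receptors of both pathways.

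The promoters of a direct and an indirect receptor gene and of a direct peptide gene are shown as examples. The part of these sequences in the levels of the members was not tested. The sequences are RefSeq windows on GRCm38.p6, each from 250 bases before to 50 bases after a start site. Capitals mark the GC box GGGCGG and the CRE core motif TGACG, searched on both strands, which do not overlap in these windows. The Drd1 window is at chr13:54055609-54055908 on the minus strand, the Drd2 window at chr9:49340153-49340452 on the plus strand and the Tac1 window at chr6:7554811-7555110 on the plus strand.
Drd1: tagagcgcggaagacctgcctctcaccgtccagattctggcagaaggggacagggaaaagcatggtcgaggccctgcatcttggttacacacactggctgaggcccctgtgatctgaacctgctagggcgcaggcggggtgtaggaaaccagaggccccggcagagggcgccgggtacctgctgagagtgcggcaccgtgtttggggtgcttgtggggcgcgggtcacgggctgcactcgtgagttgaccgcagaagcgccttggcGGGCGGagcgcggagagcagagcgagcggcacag
Drd2: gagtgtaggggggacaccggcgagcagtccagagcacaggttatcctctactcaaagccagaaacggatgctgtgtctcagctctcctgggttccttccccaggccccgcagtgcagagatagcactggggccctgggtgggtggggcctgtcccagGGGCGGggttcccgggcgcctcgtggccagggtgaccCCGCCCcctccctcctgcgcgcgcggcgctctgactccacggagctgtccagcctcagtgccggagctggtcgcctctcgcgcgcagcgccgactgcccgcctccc
Tac1: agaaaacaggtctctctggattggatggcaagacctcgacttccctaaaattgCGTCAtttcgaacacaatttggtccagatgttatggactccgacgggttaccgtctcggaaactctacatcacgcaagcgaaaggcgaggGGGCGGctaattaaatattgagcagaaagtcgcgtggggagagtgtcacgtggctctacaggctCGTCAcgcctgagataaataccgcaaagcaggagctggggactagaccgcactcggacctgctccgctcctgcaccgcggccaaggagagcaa

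A GC box was found once in the Drd1 window, 2 times in the Drd2 window and once in the Tac1 window. Of 32851 windows of all genes, 35.7% held a GC box. The CRE core motif was found 2 times in the Tac1 window, at bases 54 to 58 and 208 to 212, and in neither of the other two. It occurred in 20.8% of all windows. Of the members, 6 had at least 1 window, 9 windows in all, of which 7 held a GC box and 1 a CRE core motif. The windows of Pdyn held neither motif. GC content was 65.7% for Drd1, 70.3% for Drd2 and 54.0% for Tac1, with 23, 23 and 22 CpG dinucleotides, in the windows shown. Another Drd1 window, at chr13:54054731-54055030, is not shown. It held 1 GC box, 59.3% GC and 6 CpG dinucleotides. Adora2a, Penk and Ppp1r1b had no entry.

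Total counts per library were 15922919 to 24865998, with a median of 18497216. Markers of cortex excitatory neurons were present in every library, at a summed level of 2070 to 3860 CPM over 9 genes. Injury markers were read from 2 lists, microglia and macrophages (7 genes, such as Lyz2, Gpnmb and Cd68) and reactive astrocytes (4 genes, such as Gfap), as the mean log2 CPM (counts scaled to library size) of the list, called its score. 3 libraries stood apart from their groups. HT + Sham mouse 6 had a microglial score of 4.63 against 2.12 to 2.82 in the other HT + Sham mice. HT + Stroke mice 1 and 6 had scores of 3.26 and 3.29 against 5.12 to 6.68 in the other HT + Stroke mice. Fold changes, ratios and relations of the members are also given without these libraries.

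Among the members, the level in FPKM (counts scaled by gene length and library size), which allows genes to be compared per length, was highest for Penk and Ppp1r1b. Over 24 libraries the mean FPKM was 209 ± 96.2 (SD) for Penk and 183 ± 101 for Ppp1r1b, which did not differ beyond their spread. Adora2a (25.1 ± 17.8), Tac1 (23.7 ± 11.2), Drd2 (17.3 ± 12.3), Rgs9 (14.7 ± 9.07) and Pdyn (13.2 ± 5.68) followed, each within the spread of its neighbours. Drd1 (7.57 ± 3.99) and Pde10a (6.70 ± 3.14) were lowest and did not differ beyond their spread. The gap between Ppp1r1b and Adora2a was larger than the SD of either gene.

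**Figure D1:**
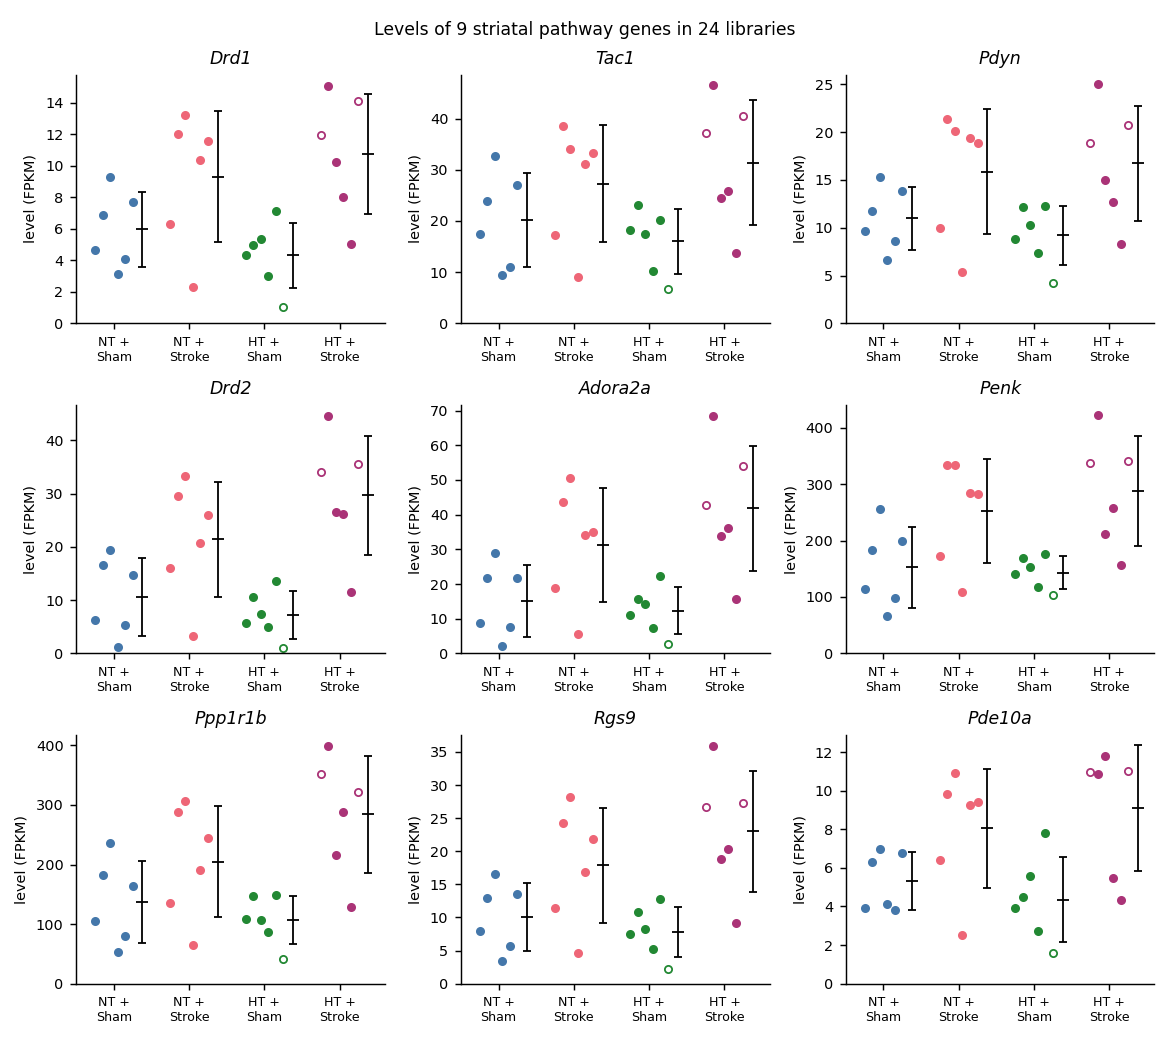
Level in FPKM (vertical axis, from 0) of each of the 9 members in the 24 libraries by group, with 1 point per library and the mean and SD in black; open points are the 3 libraries that stand apart. The highest library of every member belongs to HT + Stroke, and each pair of groups overlaps for every member.

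The levels of the members spread widely among mice of the same group. The SD within groups on the log2 CPM scale was 1.22 for Drd2, 1.11 for Adora2a, 0.86 for Rgs9, 0.799 for Drd1, 0.743 for Ppp1r1b, 0.722 for Tac1, 0.68 for Pde10a, 0.617 for Pdyn and 0.579 for Penk. Over the 15489 genes that averaged 1 CPM or more, the median was 0.187 and the 95th percentile 0.539. All 9 members lay above the 95th percentile. The CPM of the highest library exceeded that of the lowest 46.8-fold for Drd2, 29.9-fold for Adora2a, 14.2-fold for Drd1 and 6.18-fold for Penk, so the receptor genes varied more than the peptide genes.

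Among the direct pathway genes, Drd1 FPKM (lowest, median and highest of 6) was 3.14, 5.75 and 9.30 in NT + Sham, 2.32, 10.95 and 13.2 in NT + Stroke, 1.06, 4.66 and 7.12 in HT + Sham, and 5.02, 11.1 and 15.1 in HT + Stroke. The medians were higher in both stroke groups, and the lowest stroke libraries lay within the range of the sham libraries. Tac1 FPKM was 9.42, 20.7 and 32.8 in NT + Sham, 9.13, 32.3 and 38.6 in NT + Stroke, 6.61, 17.9 and 23.2 in HT + Sham, and 13.7, 31.5 and 46.6 in HT + Stroke. Pdyn FPKM was 6.61, 10.7 and 15.3 in NT + Sham, 5.35, 19.2 and 21.4 in NT + Stroke, 4.19, 9.59 and 12.3 in HT + Sham, and 8.26, 17.0 and 25 in HT + Stroke. The order of the group medians was alike for the peptide genes, with HT + Sham lowest and the stroke groups close together.

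Among the indirect pathway genes, Drd2 FPKM was 1.27, 10.6 and 19.5 in NT + Sham, 3.32, 23.4 and 33.3 in NT + Stroke, 0.942, 6.58 and 13.6 in HT + Sham, and 11.6, 30.3 and 44.5 in HT + Stroke. Only 1 HT + Sham library, mouse 5, lay above the lowest HT + Stroke library, mouse 5. Adora2a FPKM was 2.20, 15.2 and 28.8 in NT + Sham, 5.48, 34.6 and 50.5 in NT + Stroke, 2.84, 12.7 and 22.4 in HT + Sham, and 15.8, 39.4 and 68.4 in HT + Stroke. Penk FPKM was 65.7, 148 and 255 in NT + Sham, 108, 283 and 334 in NT + Stroke, 103, 147 and 176 in HT + Sham, and 157, 298 and 423 in HT + Stroke. Penk was the member with the narrowest range in HT + Sham, with an SD of 0.306 on the log2 CPM scale.

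Of the genes shared by both pathways, Ppp1r1b FPKM was 52.7, 135 and 236 in NT + Sham, 64.9, 218 and 306 in NT + Stroke, 41.7, 108 and 149 in HT + Sham, and 129, 305 and 400 in HT + Stroke. Rgs9 FPKM was 3.39, 10.4 and 16.6 in NT + Sham, 4.71, 19.4 and 28.1 in NT + Stroke, 2.25, 7.87 and 12.8 in HT + Sham, and 9.11, 23.5 and 35.9 in HT + Stroke. Pde10a FPKM was 3.80, 5.23 and 7.00 in NT + Sham, 2.51, 9.32 and 10.9 in NT + Stroke, 1.57, 4.20 and 7.81 in HT + Sham, and 4.36, 10.9 and 11.8 in HT + Stroke. The same mice were lowest for all 9 members in 3 groups, mouse 4 in NT + Stroke, mouse 6 in HT + Sham and mouse 5 in HT + Stroke, and mouse 4 was lowest in NT + Sham for all but Pde10a.

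Whether stroke altered the members in normotensive mice was asked with NT + Stroke vs NT + Sham. None of the 9 members passed an adjusted P of 0.05 (edgeR quasi-likelihood test, Benjamini-Hochberg over 16835 genes), where 25.9% of all genes passed. The fitted log2 fold changes were all above 0, from 0.38 for Tac1 to 1.01 for Adora2a, with adjusted P of 0.227 to 0.553. The median of the members was 0.60, against -0.01 for all genes. By pathway, Drd1 was 0.60 (SE 0.41), Tac1 0.38 (SE 0.41) and Pdyn 0.49 (SE 0.34), and Drd2 was 0.97 (SE 0.63), Adora2a 1.01 (SE 0.63) and Penk 0.68 (SE 0.38). The 95% confidence interval of Drd2 ran from -0.44 to 2.37. Of the 6 NT + Stroke libraries, 5 lay above the NT + Sham median for Drd1, Drd2, Adora2a, Penk, Rgs9 and Pde10a, and 4 for the others. Without NT + Stroke mouse 4, 1 member (Pde10a) passed, as did 23.7% of all genes.

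The same question was asked in hypertensive mice with HT + Stroke vs HT + Sham. In this comparison 0 of 9 members passed (edgeR), where 0.645% of 16741 genes passed, and all 9 had an unadjusted P under 0.05, as did 17.0% of all genes. Fitted log2 fold changes were 0.85 for Pdyn to 2.03 for Drd2, with adjusted P of 0.0636 to 0.205, and their median was 1.30 against 0.00 for all genes. Penk had a log2 fold change of 0.99 (SE 0.22, adjusted P = 0.0636), Ppp1r1b of 1.40 (SE 0.33, adjusted P = 0.0794) and Drd2 of 2.03 (SE 0.51, adjusted P = 0.0926), and all 6 HT + Stroke libraries lay above the HT + Sham median for each. The direct genes were Drd1 at 1.30 (SE 0.40), Tac1 at 0.96 (SE 0.35) and Pdyn at 0.85 (SE 0.30). Leaving out 1 library at a time, edgeR called 9 genes (without HT + Sham mouse 3 or HT + Stroke mouse 2) to 533 (without HT + Stroke mouse 1), against 108 with all libraries. DESeq2 called 6 members (Drd1, Drd2, Adora2a, Penk, Ppp1r1b and Rgs9) and 907 genes, 2.79% of the 32562 genes with at least 1 count. Without the 3 libraries that stand apart, edgeR called Ppp1r1b alone among the members, where it called 8.47% of genes, and the members' log2 fold changes were 0.53 to 1.63. Without HT + Stroke mouse 5 it called 2 (Penk and Ppp1r1b), where it called 1.23% of genes.

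An effect of hypertension was not detected for any member, either in sham mice or in stroke mice. In HT + Sham vs NT + Sham, 0 of 9 members and 0% of 16581 genes passed (edgeR), and 0 members and 1332 genes had an unadjusted P under 0.05. DESeq2 called 0 members and 0 genes. All 9 log2 fold changes were below 0, from -0.59 for Drd2 to -0.12 for Penk, with SEs of 0.28 to 0.66. In HT + Stroke vs NT + Stroke, 0 of 9 members and 0% of 17008 genes passed (edgeR), 0 members and 1230 genes had an unadjusted P under 0.05, and log2 fold changes were 0.07 for Pdyn to 0.47 for Ppp1r1b. DESeq2 again called 0 members and 0 genes. Without the 3 libraries that stand apart, the members' log2 fold changes were -0.35 to -0.036 in HT + Sham vs NT + Sham and -0.082 to 0.32 in HT + Stroke vs NT + Stroke. With all libraries, the interval of each member held 0 in both comparisons, and for Drd2 it ran from -2.06 to 0.88 and from -0.59 to 1.52.

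HT + Stroke vs NT + Sham compared mice with both conditions to those with neither, and shares its libraries with the comparisons above. None of the 9 members passed (edgeR), where 14.7% of 16749 genes did, and 7 had an unadjusted P under 0.05, as did 29.6% of all genes. The log2 fold changes were 1.44 (SE 0.55) for Drd2, 1.42 (SE 0.56) for Adora2a, 0.87 (SE 0.35) for Penk, 0.81 (SE 0.32) for Drd1, 0.59 (SE 0.37) for Tac1 and 0.57 (SE 0.27) for Pdyn. Adjusted P was lowest for Rgs9, at 0.0916. DESeq2 called 2 members (Ppp1r1b and Rgs9), where it called 9.88% of genes, and edgeR without HT + Stroke mouse 5 called 2 (Drd1 and Pde10a), where it called 12.1%. Leaving out 1 library at a time, edgeR called 1357 genes (without HT + Stroke mouse 2) to 2966 (without HT + Stroke mouse 1). Without the 3 libraries that stand apart it called 0 members and 20.6% of genes, and the members' log2 fold changes were 0.39 to 1.29. The interaction of hypertension and stroke, the test of whether the effect of stroke differed between HT and NT mice, was passed by 0 of 9 members and 0% of 17608 genes (edgeR), with 0 members and 1836 genes at an unadjusted P under 0.05. DESeq2 called 0 members and 22 genes for it. Its log2 estimates were 0.30 for Penk to 1.05 for Drd2, and 0.044 to 0.67 over the members without the 3 libraries.

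**Figure D2:**
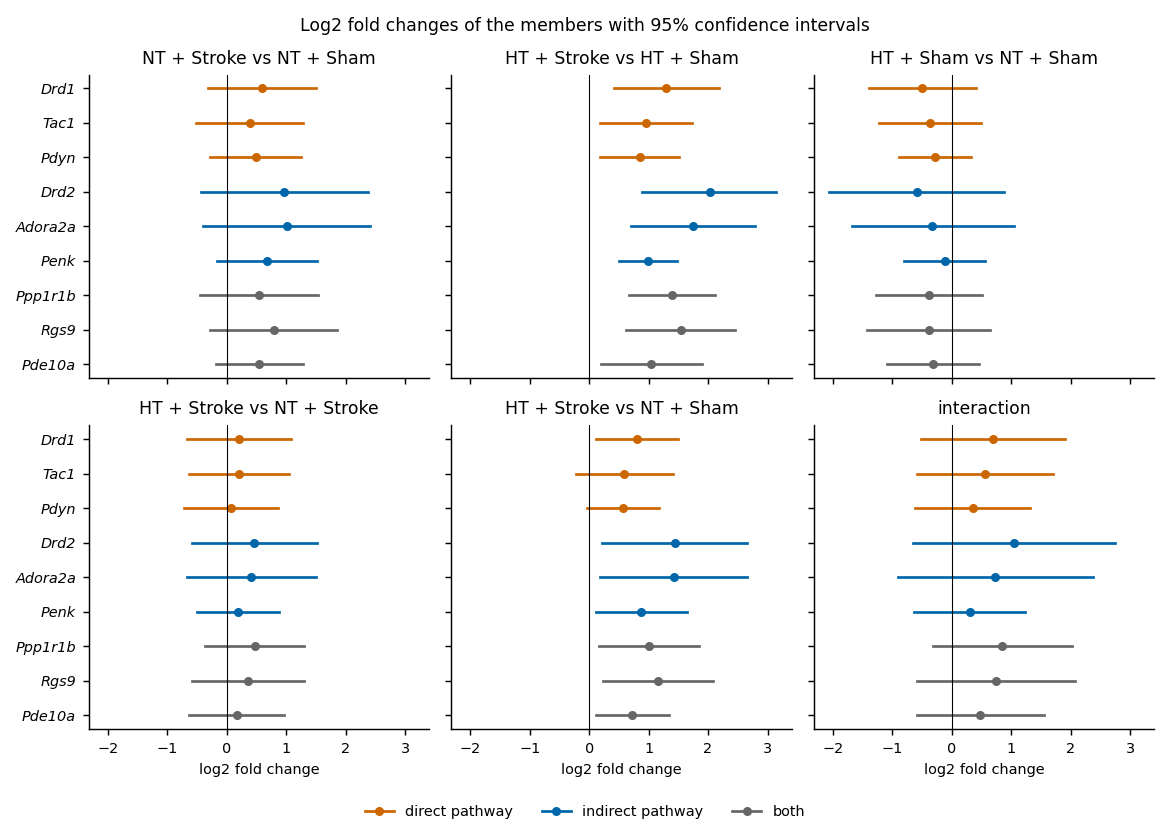
Log2 fold change (horizontal axis) of the 9 members in the 5 comparisons of groups and the interaction, with 95% confidence intervals from edgeR. Intervals lie above 0 for all 9 members in HT + Stroke vs HT + Sham and for 7 in HT + Stroke vs NT + Sham, none passed after adjustment, and the intervals of Drd2 and Adora2a are the widest in each panel.

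The direct and indirect pathways were contrasted within each library, since a ratio of counts does not depend on library scaling. The log2 ratios of counts were compared between groups by exact two-sided permutation tests, adjusted over 20 tests, and with 6 against 6 libraries the smallest P is 0.00216. Of the 20 tests, 6 passed an adjusted P of 0.05, and in each the ratio was lower in the stroke group than in the sham group, so that the indirect gene was higher relative to the direct one. 3 of these 6 compared HT + Stroke with NT + Sham, which differ in infusion as well as in surgery. The Drd1 to Drd2 ratio fell from -0.07 ± 0.45 (SD, n = 6) in HT + Sham to -0.94 ± 0.18 (n = 6) in HT + Stroke, a difference of -0.87 (exact permutation P = 0.00216, adjusted P = 0.0216), and the groups did not overlap. It was 0.04 ± 0.94 in NT + Sham and -0.60 ± 0.32 in NT + Stroke, a difference of -0.64 that did not pass (exact permutation, adjusted P = 0.139). Compared to NT + Sham, the ratio in HT + Stroke differed by -0.97 (exact permutation, adjusted P = 0.0216), with all 6 libraries below the NT + Sham median.

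The Drd1 to Adora2a ratio followed the same order of groups. It was -1.22 ± 0.15 in HT + Sham and -1.67 ± 0.22 in HT + Stroke, a difference of -0.45 (exact permutation, adjusted P = 0.0216, 6 of 6 libraries below the HT + Sham median). Compared to NT + Sham, at -0.77 ± 0.82, HT + Stroke differed by -0.91 (exact permutation, adjusted P = 0.0216). NT + Stroke, at -1.41 ± 0.25, differed from NT + Sham by -0.64 and did not pass (exact permutation, adjusted P = 0.130). The receptor ratios thus passed in the comparisons that held HT + Stroke and a sham group. In HT + Stroke vs NT + Stroke they differed by -0.34 for Drd1 to Drd2 (exact permutation, adjusted P = 0.0649) and by -0.26 for Drd1 to Adora2a (exact permutation, adjusted P = 0.133).

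The peptide ratios set substance P and dynorphin precursors against the enkephalin precursor. The Tac1 to Penk ratio was -1.85 ± 0.16 in NT + Sham, -2.20 ± 0.18 in NT + Stroke, -2.20 ± 0.41 in HT + Sham and -2.17 ± 0.16 in HT + Stroke. It was lower than in NT + Sham by -0.35 in NT + Stroke and by -0.33 in HT + Stroke (exact permutation, adjusted P = 0.0216 for each, 6 of 6 libraries below the NT + Sham median). HT + Sham differed from NT + Sham by -0.35 and did not pass (exact permutation, adjusted P = 0.130), and HT + Stroke differed from HT + Sham by 0.03. The Pdyn to Penk ratio was -2.88 ± 0.29 in NT + Sham, -3.22 ± 0.17 in NT + Stroke, -3.20 ± 0.30 in HT + Sham and -3.29 ± 0.18 in HT + Stroke, and none of its 5 tests passed (exact permutation, adjusted P = 0.0618 to 0.632).

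Each of these calls was lost without at least 1 single library. Without HT + Stroke mouse 2, 0 of the 20 tests passed, and Drd1 to Drd2 and Drd1 to Adora2a in HT + Stroke vs HT + Sham each had an exact permutation adjusted P of 0.0541. In HT + Stroke vs NT + Sham both receptor ratios lost their call without any 1 of HT + Stroke mice 1, 2, 3, 4 and 6 (exact permutation, adjusted P of up to 0.0866). Without NT + Sham mouse 1, the Tac1 to Penk ratio lost its call in NT + Stroke vs NT + Sham (exact permutation, adjusted P = 0.0505), and in HT + Stroke vs NT + Sham it lost its call without that mouse or HT + Stroke mouse 2. Without NT + Sham mouse 3 the Pdyn to Penk ratio passed in both comparisons (exact permutation, adjusted P = 0.0271). Without the 3 libraries that stand apart, 0 of 20 passed and the differences were -0.73 for Drd1 to Drd2 and -0.46 for Drd1 to Adora2a in HT + Stroke vs HT + Sham. With 4 against 5 libraries in that comparison, both ratios had an exact permutation P of 0.0159 (adjusted P = 0.0794 for each). The Tac1 to Penk difference in NT + Stroke vs NT + Sham, which holds none of the 3 libraries, stayed at -0.35 with an exact permutation P of 0.00649, and its adjusted P over the 20 tests was 0.0794. In HT + Stroke vs NT + Sham it was -0.38 (exact permutation P = 0.0143, adjusted P = 0.0794).

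**Figure D3:**
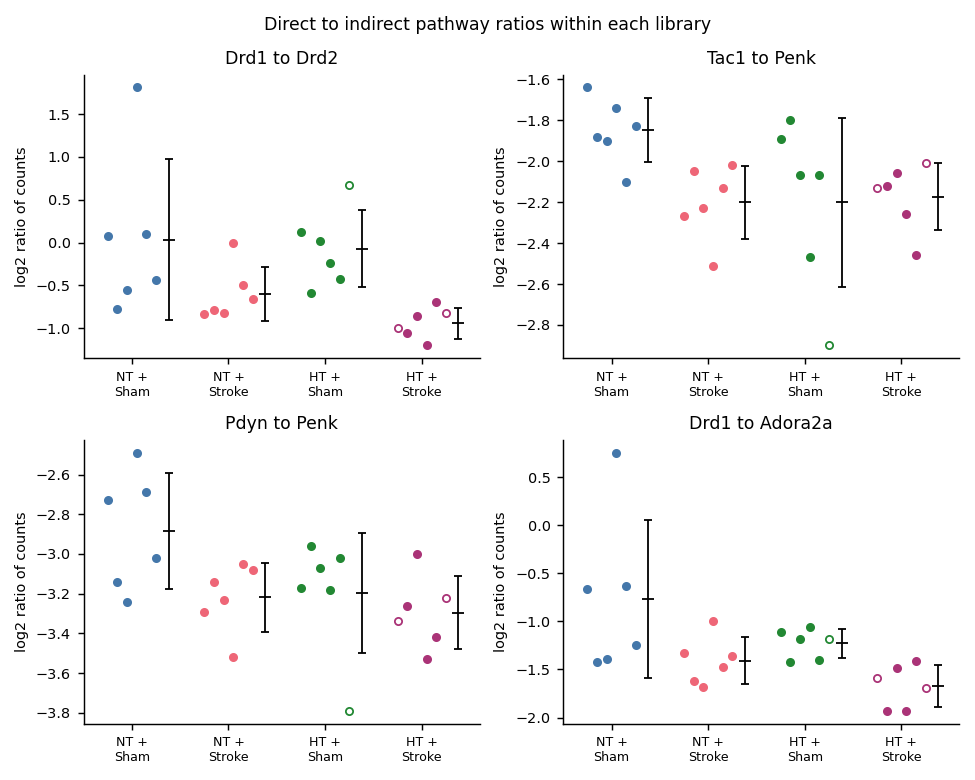
Log2 ratio of counts (vertical axis) of Drd1 to Drd2, Tac1 to Penk, Pdyn to Penk and Drd1 to Adora2a in each library by group, with the mean and SD in black and open points for the 3 libraries that stand apart. HT + Stroke lies below HT + Sham without overlap for Drd1 to Drd2, and NT + Sham mouse 4 lies far above its group in both receptor ratios.

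The plane of the section was read from lists of genes that hold no member. The pan-SPN list (12 genes, such as Scn4b, a sodium channel subunit) stood for the amount of striatum in a library. Its score had a range of 4.31 to 5.65 in NT + Sham, 4.54 to 6.36 in NT + Stroke, 3.88 to 5.63 in HT + Sham and 5.25 to 6.43 in HT + Stroke, and its summed level 751 to 1420, 759 to 2090, 599 to 1400 and 1140 to 2570 CPM. The score was lowest in the libraries in which the members were low: NT + Sham mouse 4 (4.31), NT + Stroke mouse 4 (4.54), HT + Sham mouse 6 (3.88) and HT + Stroke mouse 5 (5.26). Of its 12 genes, Ido1 was at 0 in at least 1 library and the others were above 0 in all 24.

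Members followed this score closely within groups. Values were centred on the group mean over 24 libraries, and 16 relations were tested by permutation within groups. Both values of a pair came from the same library and so share its depth and section. Pearson's r with the pan-SPN score was 0.978 for Drd1, 0.942 for Tac1, 0.953 for Pdyn, 0.951 for Drd2, 0.966 for Adora2a and 0.900 for Penk. Spearman's rho was 0.954, 0.871, 0.891, 0.940, 0.963 and 0.897 in the same order, each with a permutation P of 1e-05, the smallest that 100000 permutations can give, and an adjusted P of 1.60e-05 for both r and rho. Without the 2 libraries farthest on the score, r was 0.904 to 0.977, and within single groups it was at least 0.870. With the 3 libraries that stand apart left out, r was 0.981, 0.928, 0.940, 0.941, 0.961 and 0.920. The slopes differed, with Drd2 differing by 2.05 and Adora2a by 1.90 log2 units per unit of score, Drd1 by 1.38, Tac1 by 1.20, Pdyn by 1.04 and Penk by 0.92.

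**Figure D4:**
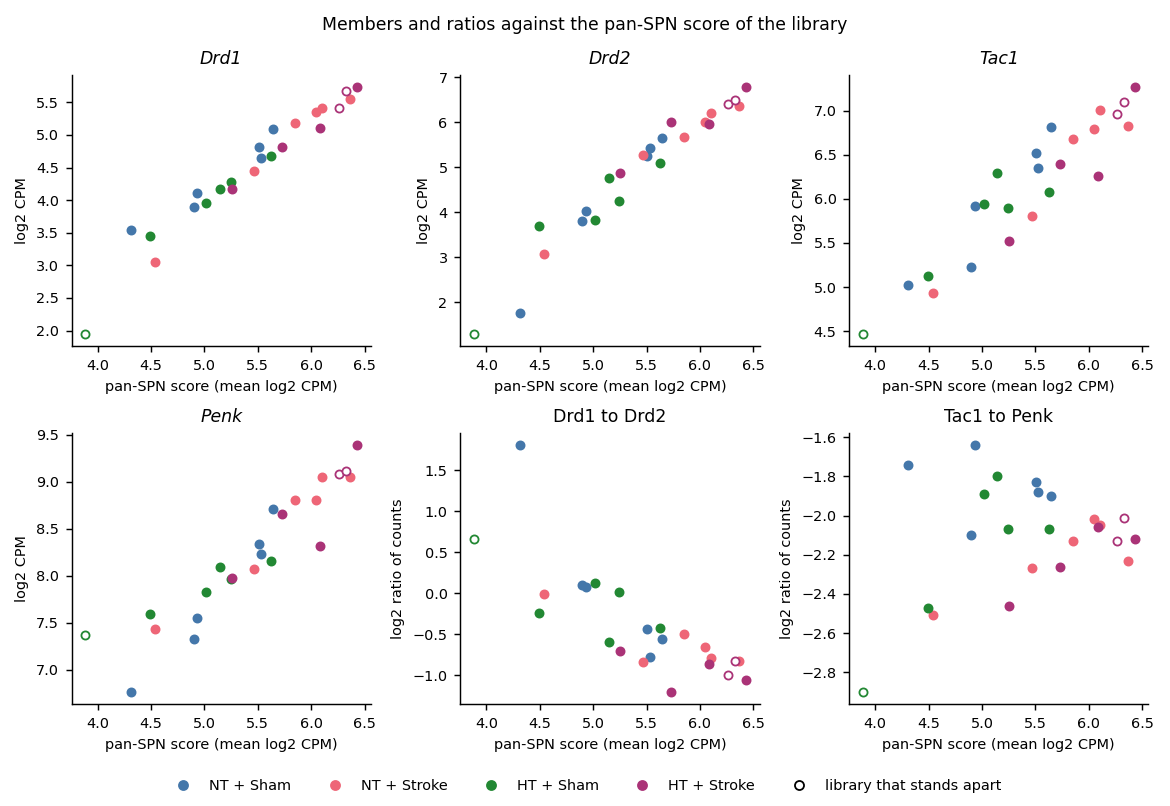
Log2 CPM of Drd1, Drd2, Tac1 and Penk, and the log2 ratios Drd1 to Drd2 and Tac1 to Penk (vertical axes), against the pan-SPN score of the library in mean log2 CPM (horizontal axes), coloured by group with open points for the 3 libraries that stand apart. The members are higher where the score is higher in every group, and the Drd1 to Drd2 ratio is highest where the score is lowest.

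Direct and indirect genes also moved with each other. The r of Drd1 with Drd2 was 0.937 (rho 0.910), of Tac1 with Penk 0.949 (rho 0.935), of Pdyn with Penk 0.919 (rho 0.894) and of Drd1 with Adora2a 0.942 (rho 0.935), each with a permutation P of 1e-05 and an adjusted P of 1.60e-05. Without the 2 libraries farthest on the indirect gene, r was 0.963, 0.933, 0.900 and 0.969, and within single groups it was at least 0.944. In the same order r was 0.917, 0.966, 0.936 and 0.942 without the 3 libraries that stand apart. Over all 36 pairs of members, r was 0.783 to 0.989. The slope of Drd1 was 0.62 log2 units per unit of Drd2, and that of Tac1 1.18 per unit of Penk, so the slopes lay on opposite sides of 1.

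The ratios varied with the score as well. Within groups, the slope of the Drd1 to Drd2 ratio was -0.67 and that of the Drd1 to Adora2a ratio -0.52 per unit of pan-SPN score, and that of the Tac1 to Penk ratio 0.28 and of the Pdyn to Penk ratio 0.12. NT + Sham mouse 4, with the lowest score of its group, had the highest Drd1 to Drd2 ratio, at 1.81. With each ratio adjusted for the score by these slopes, an alternative chosen after the data were seen, the Drd1 to Drd2 difference in HT + Stroke vs HT + Sham was -0.12 (exact permutation, adjusted P = 0.528), and the Drd1 to Adora2a difference was 0.13 (exact permutation, adjusted P = 0.491). The Tac1 to Penk difference remained past the threshold, at -0.52 in NT + Stroke vs NT + Sham and -0.57 in HT + Stroke vs NT + Sham (exact permutation, adjusted P = 0.0216 for each). Thus 2 of 20 tests passed, both for Tac1 to Penk.

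The score as a covariate in the edgeR fits also moved the members. In HT + Stroke vs HT + Sham the log2 fold changes were then -0.35 to 0.32, with 0 of 9 members and 0 genes called. In NT + Stroke vs NT + Sham they were -0.37 to 0.05, and 1 of 9 members, Ppp1r1b, passed, at -0.28, where 24% of 16835 genes passed. Since the score was itself higher in the stroke groups, with means of 5.73 and 6.02 against 5.14 and 4.90 in the sham groups, the amount of striatum and the condition cannot be told apart.

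The olfactory bulb list (7 genes, such as Cdhr1 and Tbx21) stood for a plane in front of the striatum, and its score was lower where the members were higher within groups. Between groups this did not hold in normotensive mice, where the mean score was 3.65 in NT + Sham and 4.87 in NT + Stroke (ranges of 2.69 to 4.24 and 3.79 to 5.79). With this score as a covariate in NT + Stroke vs NT + Sham, the members' log2 fold changes were 0.97 to 1.78, 0 of 9 passed, and adjusted P was 0.0548 to 0.146 (edgeR). In that fit 20.4% of 16835 genes passed. Values centred on the group mean were then related to the score. Its r was -0.671 for Drd1, -0.714 for Tac1, -0.722 for Pdyn, -0.579 for Drd2, -0.594 for Adora2a and -0.678 for Penk (permutation, adjusted P = 5.82e-05 to 0.00024). Spearman's rho was -0.774, -0.765, -0.791, -0.684, -0.691 and -0.716 (permutation, adjusted P = 2.67e-05 to 0.00019). Without the 2 libraries farthest on the score, r was -0.750 to -0.643. Within groups it was weakest in NT + Sham, at -0.590 to -0.402, and it was -0.920 to -0.850 in HT + Sham. It was -0.720 to -0.565 without the 3 libraries that stand apart. The list's score was 1.53 to 5.49 in HT + Stroke and 3.70 to 6.13 in HT + Sham, and HT + Stroke mice 1, 2 and 6, with the highest Drd2, had the lowest olfactory bulb scores of the group. Mice 1 and 6 are also the HT + Stroke libraries with low microglial scores.

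**Figure D5:**
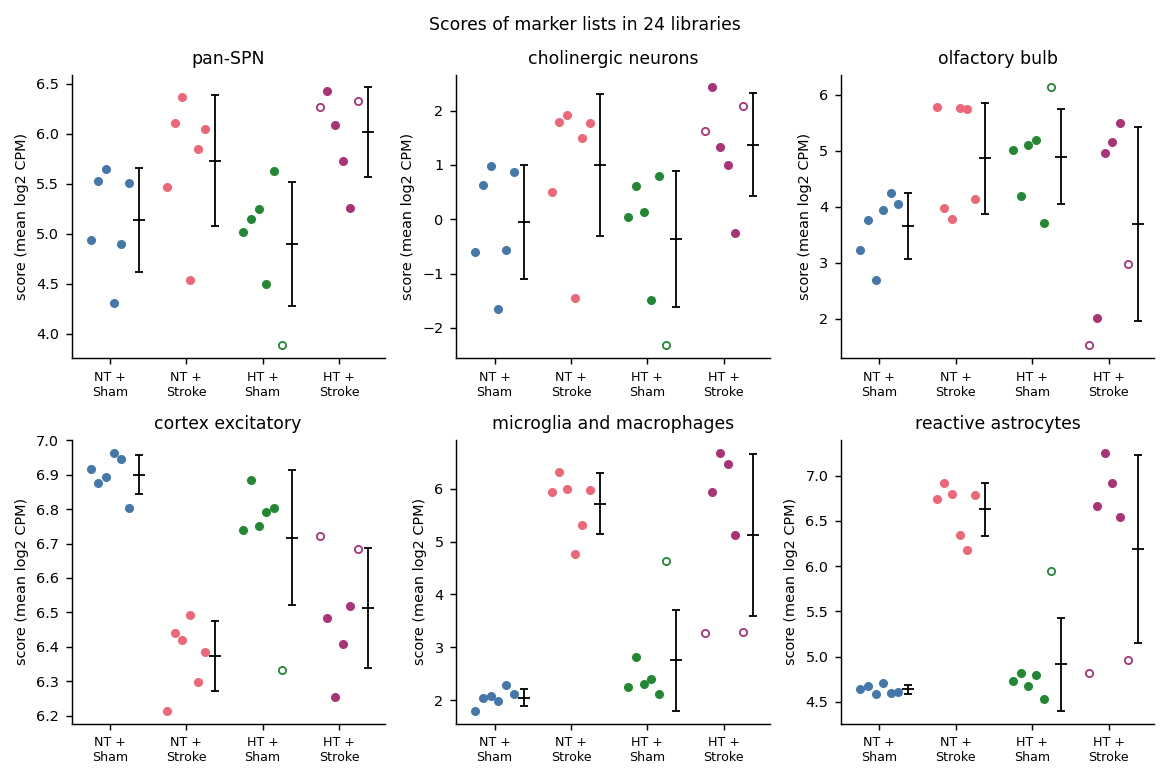
Score, the mean log2 CPM, of 6 marker lists (vertical axes) in each library by group, with the mean and SD in black and open points for the 3 libraries that stand apart. Pan-SPN and cholinergic scores vary together within groups, the olfactory bulb score varies by more than 3 units in HT + Stroke, and HT + Stroke mice 1 and 6 lie low for microglia and astrocytes.

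Other genes of the striatum were counted by lists. Of 12 pan-SPN genes, 2 were higher in NT + Stroke vs NT + Sham (Actn2 and Rarb), 2 in HT + Stroke vs HT + Sham (Syndig1l and Rasgrp2) and 6 in HT + Stroke vs NT + Sham (Actn2, Scn4b and Adcy5 with the smallest P), 0 were lower, and the median log2 fold changes were 0.66, 1.10 and 0.88. Over all genes, 14.4%, 0.544% and 8.38% were higher in these comparisons (edgeR). Without the 3 libraries that stand apart, 2 (the same genes) of 12 were higher in HT + Stroke vs HT + Sham, where 6.81% of 16956 genes were, and 2 (Scn4b and Actn2) in HT + Stroke vs NT + Sham, where 12.2% of 17168 genes were, at medians of 0.83 and 0.75. Syndig1l rose by 1.43 (SE 0.23, adjusted P = 0.0193) on the log2 scale and Rasgrp2 by 0.79 (SE 0.15, adjusted P = 0.0334) in HT + Stroke vs HT + Sham (edgeR). Of 6 direct pathway companions, 1 was higher in NT + Stroke vs NT + Sham, Slc35d3 at 1.06 (SE 0.25, adjusted P = 0.00683). Of 6 indirect pathway companions 5 were tested, since Gpr52 had no values in the deposited data. Of these, 2 were higher in that comparison, Sp9, a transcription factor of indirect pathway neurons, at 0.99 (SE 0.18, adjusted P = 0.00119, edgeR), and Upb1 at 1.31 (SE 0.39, adjusted P = 0.0196). In hypertensive mice Sp9 was at -0.29 (SE 0.26, adjusted P = 0.633) in HT + Stroke vs HT + Sham, with 1 of 6 libraries above the HT + Sham median, and 0.72 (SE 0.21, adjusted P = 0.426, 6 of 6 above) in HT + Sham vs NT + Sham, where all members were below 0. Its interaction estimate was -1.29 (adjusted P = 0.318). Mean Sp9 was 30.8 CPM in NT + Stroke against 15.5 in NT + Sham. It was 20.7 CPM in HT + Stroke against 25.5 in HT + Sham, where all 9 members differed upward. The mean olfactory bulb score moved as Sp9 did, at 4.87 against 3.65 in normotensive mice and 3.69 against 4.89 in hypertensive mice. How much of Sp9 came from olfactory bulb tissue was not tested. Neither list of companions had a call in HT + Stroke vs HT + Sham, where the medians were 0.38 (direct) and 1.48 (indirect). Without the 3 libraries the medians were 0.29 and 1.25, and Gpr6 was called. Upb1 was higher in HT + Stroke vs NT + Sham by 1.62 (SE 0.47, adjusted P = 0.0333).

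Receptors for the peptides were read as a further list. Of 4 peptide and opioid receptor genes tested, 2 rose in NT + Stroke vs NT + Sham, both receptors of the tachykinin family: Tacr1, the substance P receptor, by 1.02 (SE 0.12, adjusted P = 9e-06), and Tacr3 by 1.15 (SE 0.30, adjusted P = 0.00892). Tacr1 also rose in HT + Stroke vs NT + Sham, by 1.07 (SE 0.17, adjusted P = 0.00693). Of 12 genes of dopamine and cAMP signalling, Rgs7bp fell in NT + Stroke vs NT + Sham, at -0.25 (SE 0.07, adjusted P = 0.0146), and Gng7, Adcy5 and Pde1b, the first 2 of which the pan-SPN list also holds, were higher in HT + Stroke vs NT + Sham, by 0.85, 0.70 and 0.76, and none of these 3 passed without the 3 libraries that stand apart. The list's medians were 0.06 in NT + Stroke vs NT + Sham and 0.35 in HT + Stroke vs HT + Sham. Of all genes, 14.4% were higher and 11.5% lower in NT + Stroke vs NT + Sham. In HT + Stroke vs NT + Sham 8.38% were higher and 6.37% lower.

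Cholinergic neurons, which are interneurons in the striatum and projection neurons in the basal forebrain, were read from 5 genes. Chat, which makes acetylcholine, was higher in NT + Stroke vs NT + Sham by 1.63 (SE 0.56, adjusted P = 0.0479) and in HT + Stroke vs NT + Sham by 1.74 (SE 0.53, adjusted P = 0.04), and was the only gene of the list to pass. It did not pass in the latter without the 3 libraries that stand apart. With all libraries, 14.4% and 8.38% of all genes were higher in these comparisons. The summed level was 1.45 to 10.6 CPM in NT + Sham and 4.02 to 27.6 CPM in HT + Stroke. As a description over 24 libraries, the members had an r of 0.914 to 0.974 with the score of this list. With the score of cortex excitatory neurons, r was 0.176 to 0.342. Both values of a pair came from the same section.

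Lists of cortex and of injury were read in the same comparisons. In NT + Stroke vs NT + Sham, 9 of 9 cortex excitatory genes were lower, with a median of -0.51 (Neurod6, Fezf2 and Tbr1 with the smallest P), as were 4 of 5 genes of all neurons, and 7 of 7 microglial and macrophage genes and 4 of 4 reactive astrocyte genes were higher. The olfactory bulb list had 4 of 7 genes higher there, and the septum list 2 of 3, Zic1 and Zic4. Over all genes, 14.4% were higher and 11.5% lower in this comparison (edgeR). In HT + Stroke vs HT + Sham none of these 6 lists had a call, at medians of -0.20 for cortex, 2.97 for microglia and -0.77 for olfactory bulb. When the 3 libraries that stand apart were left out, 4 of 9 cortex excitatory genes were lower there, and 7 of 7 microglial and 4 of 4 astrocyte genes were higher, and the olfactory bulb median was -0.08. Zic4 of the septum list was then also higher, and Stmn2 of the list of all neurons lower. Of all genes, 6.81% were then higher and 1.66% lower. Lists for thalamus and hippocampus (2 of 6 higher, Prkcd and Tcf7l2), choroid plexus (1 of 4 tested, Clic6) and midbrain dopamine neurons (2 of 4, Slc6a3 and Th) also had calls in NT + Stroke vs NT + Sham. Prkcd was higher in HT + Stroke vs HT + Sham as well, where 0.544% of all genes were. No list had a call in the interaction, in HT + Stroke vs NT + Stroke or in HT + Sham vs NT + Sham. The part of these lists in the members' differences was not tested beyond the covariates above.

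By likeness over 24 libraries of group-centred log2 CPM, Adora2a was closest to Drd2 (r = 0.985) among 15483 genes, followed by Rgs9 (0.981). Genes that are no member and were among the closest were Serpina9 (0.976), Rxrg (0.974), Gpr6 (0.974), Six3os1 (0.968), Rem2 (0.967), Slc10a4 (0.963) and Cd4 (0.960). For Drd1 they were Ecel1 (0.967), Isl1 (0.967), Rxrg (0.964), Gpr6 (0.963), Rgs8 (0.963), Lrrc10b (0.958) and Scn4b (0.953). Gpr6, a receptor of indirect pathway neurons, was among them for both references, and Isl1, a transcription factor of direct pathway neurons, among those for Drd1. Six3os1 is an antisense gene, and strand use in counting is not given in the sources used here. Pdyn ranked 2 and Penk 58 by likeness to Drd1, while Tac1 ranked 19 and Penk 20 by likeness to Adora2a.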

How the data were processed

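RNA-seq of 24 libraries, 6 in each of 4 groups, was analysed from 4 tables of pairwise comparisons, whose shared columns held the same values. The deposited tables leave out genes with fewer than 2 counts over their libraries, and 3766 of 33981 genes (0 members, 0 list genes) were missing from a group and set to 0 there. Where another table listed a missing gene, its count over the 6 libraries of the group was at most 1. Of the list genes, 1 (Gpr52) was in none of the 4 tables. The authors counted reads per gene (featureCounts 1.5.0-p3 in the submitters' processing notes, which also name DESeq2 1.20.0) and deposited raw counts, and FPKM that the authors scaled by gene length and effective library size. The aligner is not given in the sources used here. The deposited fold changes and p-values of the authors' comparisons, 48 columns of normalised counts and 8 columns of group means were not used. Total counts were 15922919 to 24865998 per library.

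Genes were tested with edgeR 4.0.16 (R 4.3.3) on counts, with filterByExpr (minimum count 10, minimum total 15), TMM scaling and a robust quasi-likelihood fit on the 2 groups compared, or on all 4 for the interaction. P was adjusted by Benjamini-Hochberg over every gene in the fit, and 0.05 was the threshold. The SE of a log2 fold change was its size divided by the square root of F. DESeq2 1.42.0 and limma 3.58.1 were alternatives. Shares of genes called by DESeq2 are over all genes with at least 1 count, whether or not it gave them an adjusted P. They thus have a wider base than the edgeR shares, which are over genes that passed the filter. Scores were means of log2 CPM (prior count 2) over list genes of at least 0.5 CPM, and ratios were log2 ratios of counts. The edgeR step was tested on simulated counts for NT + Stroke vs NT + Sham, and the other steps were not.

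The members and lists were chosen with earlier results of these data known. Besides the members, each list names at most 3 genes with the smallest P that passed, and likeness names genes among the 8 closest to each of Adora2a and Drd1. One item is not reported here. Other genes named as examples or calls were chosen after their values were seen.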

Additional observations from a re-analysis of the deposited data

Results flagged for a closer look

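A single library lay far from the others of its group in 3 of 52 groups of values tested: its gap to the nearest library, as a share of the range of the group (Dixon's ratio), exceeded the 95% critical value. Chance flags about 1 in 20 groups. In NT + Sham, mouse 4 had a Drd1 to Drd2 log2 ratio of 1.81 (Dixon's ratio 0.662) and a Drd1 to Adora2a log2 ratio of 0.757 (Dixon's ratio 0.637). In HT + Sham, mouse 6 had a Pdyn to Penk log2 ratio of -3.79 (Dixon's ratio 0.735). Both mice had the lowest pan-SPN score of their group, 4.31 and 3.88.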

How the results depend on the processing

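Each member's log2 fold change in each comparison, each ratio and each relation was recomputed under the alternatives named here and under other scalings, filters and limma pseudocounts. No member passed in the interaction, in HT + Stroke vs NT + Stroke or in HT + Sham vs NT + Sham under any of them. In NT + Stroke vs NT + Sham, the count of members called was 5 with the library number as a replicate block (4636 of 16835 genes), 1 with the pan-SPN score as a covariate (4032 genes) and 0 to 1 leaving out 1 library. For HT + Stroke vs HT + Sham it was 6 by DESeq2 (2.79% of all genes), 2 with all 4 groups in one fit (6.39%), 3 with the olfactory bulb score as a covariate (6.03%), 9 at an unadjusted P under 0.05 (17.0%), 1 without the 3 libraries that stand apart (8.47%) and 0 to 2 leaving out 1 library. For HT + Stroke vs NT + Sham it was 2 by DESeq2 (9.88% of all genes), 3 with the replicate block (4.60%), 7 at an unadjusted P under 0.05 (29.6%) and 0 to 2 leaving out 1 library. Of the 20 ratio tests, 0 passed without the 3 libraries that stand apart, 2 adjusted for the pan-SPN score and 0 to 8 leaving out 1 library. Of the 16 relations, 10 passed within NT + Sham alone. Genes called in HT + Stroke vs HT + Sham numbered 108, against 907 by DESeq2, 1125 with all 4 groups, 1010 with the olfactory bulb score, 1437 without the 3 libraries, 46 with the replicate block, 0 with the pan-SPN score and 9 to 533 leaving out 1 library. Those of HT + Stroke vs NT + Sham numbered 2470, against 770 with the block, 0 with the pan-SPN score and 1357 to 2966 leaving out 1 library. The replicate numbers share no source in the labels. Libraries with the same number had correlations of -0.494 to 0.36, and 12 of 36 correlated best with their own number. The median r for the same number was 0.133 against -0.0225 for other numbers in NT + Sham with NT + Stroke. It was -0.013 against 0.00921 in NT + Stroke with HT + Stroke, the only pair of groups in which it was lower. Whether the numbers paired the samples was not tested.

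With the pan-SPN score as a covariate, these log2 fold changes reversed. In NT + Stroke vs NT + Sham they were -0.27 for Drd1, -0.37 for Tac1, -0.21 for Pdyn, -0.22 for Drd2, -0.15 for Adora2a, -0.28 for Ppp1r1b, -0.14 for Rgs9 and -0.12 for Pde10a. Those of HT + Stroke vs HT + Sham were -0.18 for Drd1, -0.35 for Tac1, -0.31 for Pdyn and -0.33 for Pde10a. In HT + Sham vs NT + Sham they were 0.016 for Drd2, 0.28 for Adora2a and 0.195 for Penk. Those of HT + Stroke vs NT + Stroke were -0.098 for Drd1, -0.12 for Tac1, -0.22 for Pdyn, -0.060 for Penk and -0.135 for Pde10a. Those of HT + Stroke vs NT + Sham were -0.27 for Drd1, -0.58 for Tac1, -0.38 for Pdyn, -0.10 for Drd2, -0.14 for Adora2a, -0.16 for Penk, -0.115 for Ppp1r1b, -0.15 for Rgs9 and -0.14 for Pde10a. In the interaction they were -0.0445 for Tac1, -0.115 for Pdyn, -0.16 for Adora2a and -0.26 for Penk.

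With the olfactory bulb score, HT + Sham vs NT + Sham gave 0.32 for Drd1, 0.42 for Tac1, 0.315 for Pdyn, 0.52 for Drd2, 0.72 for Adora2a, 0.42 for Penk, 0.46 for Ppp1r1b, 0.54 for Rgs9 and 0.33 for Pde10a. HT + Stroke vs NT + Stroke gave -0.20 for Drd1, -0.26 for Tac1, -0.335 for Pdyn, -0.046 for Adora2a, -0.20 for Penk, -0.093 for Rgs9 and -0.16 for Pde10a. The interaction gave -0.24 for Drd1, -0.45 for Tac1, -0.51 for Pdyn, -0.013 for Drd2, -0.38 for Adora2a, -0.53 for Penk, -0.11 for Ppp1r1b, -0.32 for Rgs9 and -0.27 for Pde10a. Penk in HT + Sham vs NT + Sham was 0.030 and 0.031 by limma with pseudocounts of 1 and 0.1 FPKM, and 0.0092 with the replicate block. Without the 3 libraries, HT + Stroke vs NT + Stroke gave -0.0015 for Tac1, -0.082 for Pdyn and -0.018 for Pde10a.

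Leaving out 1 library, Penk in HT + Sham vs NT + Sham was -0.274 to 0.0974, and in HT + Stroke vs NT + Stroke Drd1 was -0.0095 to 0.351, Pdyn -0.115 to 0.215 and Pde10a -0.0284 to 0.311. The Drd1 to Drd2 ratio in HT + Sham vs NT + Sham was then -0.269 to 0.248, and the Tac1 to Penk ratio -0.113 to 0.107 in HT + Stroke vs HT + Sham and -0.0322 to 0.0858 in HT + Stroke vs NT + Stroke. In those comparisons the Tac1 to Penk ratio was -0.165 and -0.0221 without the 3 libraries and -0.287 and -0.0515 adjusted for the pan-SPN score, which gave 0.125 for Drd1 to Adora2a in HT + Stroke vs HT + Sham. The cause of these shifts was not tested. The adjustments for the pan-SPN score in ratios and the settings without the 3 libraries were chosen after seeing the data.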
